A study of Homo sapiens with 19 samples.

Results

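The 2484 DNA elements that were measured beside both the GAPDH and the MYC minimal promoter are described here, in the promoter read-out of a dual-reporter assay in K-562 cells. They were taken as the row names present in both promoter tables, of 3055 elements in the pGAPDH table and 2569 in the pMYC table, and of 3422 names in the series as a whole. The 571 elements found in the pGAPDH table alone had a median of 449 and 458 DNA reads there (replicates 1 and 2), against 1664.5 and 1688 for the shared ones. The 85 found in the pMYC table alone had 431 and 422, against 1034.5 and 1052.5. The 2484 members came from 1417 loci, and 1067 of these were present in both orientations, so many members share sequence.

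QUASARR-seq places a candidate element in a plasmid with separate barcodes for its promoter activity (paBC) and its enhancer activity (eaBC). A pool of plasmids that carried pGAPDH, pMYC or pAPOBEC3F as the minimal promoter was electroporated into K-562, an established human leukaemia line, and cells were harvested after 6 h. Each pool of electroporated cells was divided, part for RNA and part for plasmid DNA, which gave 2 RNA and 2 DNA libraries of the promoter barcode. The pGAPDH group and the pMYC group are therefore elements beside pGAPDH and elements beside pMYC, read in the same 4 libraries and the same cells. All values are from plasmids read shortly after transfer, not from chromosomes. The labels number the replicates without saying whether these 2 are technical or biological, so p-values measure only the spread between these libraries.

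A minimal promoter is a short stretch around a transcription start site that recruits the general transcription machinery and depends on nearby elements for much of its output. GAPDH encodes a glycolytic enzyme used as a housekeeping gene, and MYC a growth-promoting transcription factor under strong enhancer control. Promoter activity of an element means that transcription starts in it and enhancer activity that it raises transcription from another start. Both are read here as barcode RNA over barcode DNA. The comparison asks whether the promoter read-out of an element depends on which minimal promoter shares its plasmid.

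Depth was uneven between the minimal promoters. Each value is a whole multiple of 1 step per column, and the step was taken as 1 read. On that basis the pGAPDH table held 9080385 and 10167588 RNA reads and 5516308 and 5622101 DNA reads. The pMYC table held 2116336 and 2360455 RNA reads and 3802678 and 3886115 DNA reads. A median member had 2450 and 2752.5 RNA reads under pGAPDH and 372.5 and 423 under pMYC. Under pMYC, 35 members in each replicate had fewer than 20 RNA reads, where counting error is large.

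The deposited tables were normalized apart, so a value of one cannot be set directly against a value of the other. The shared libraries offer a common scale: RNA reads per DNA read, in which library depth is the same for both minimal promoters. It rests on the step of each column being 1 read. The lowest values are 2 to 26 steps, and a search that took the lowest value of a column as the starting step did not find whole reads. On that scale nearly every element had more RNA beside pGAPDH than beside pMYC. The median element had 1.48 and 1.63 RNA reads per DNA read beside pGAPDH (replicates 1 and 2), against 0.301 and 0.340 beside pMYC. The median fold, pGAPDH over pMYC, was 4.57 in replicate 1 and 4.54 in replicate 2. Of the 2484 members, 2450 were higher beside pGAPDH in both replicates, 20 were lower in both, and 14 had mixed signs. In limma, at an adjusted p under 0.05, 2401 were higher (96.7% of those tested) and 7 were lower (0.282%).

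**Figure D1:**
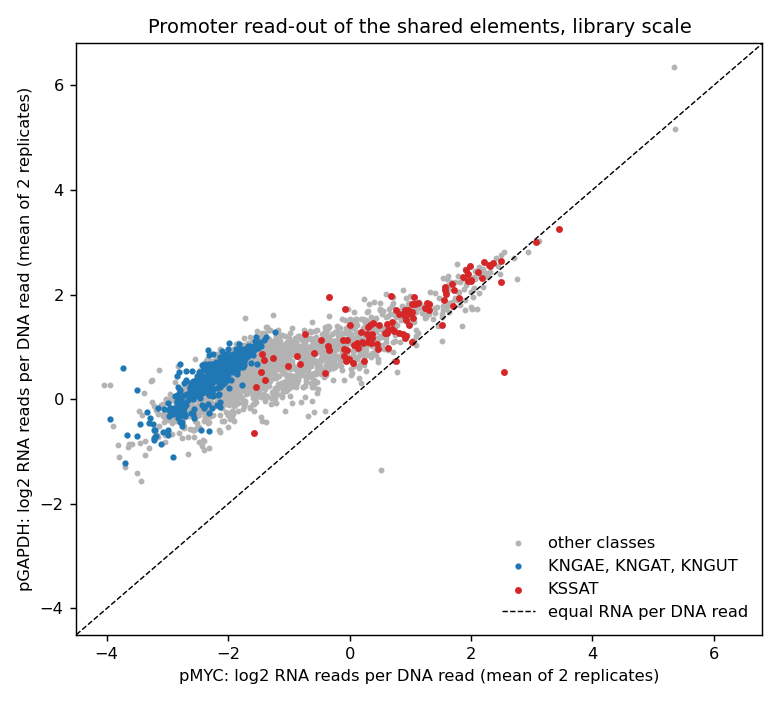
Each point is 1 of the 2484 shared elements, with log2 RNA reads per DNA read beside pGAPDH on the vertical axis and beside pMYC on the horizontal axis, both as means of 2 replicates. Most points lie above the dashed line of equal values, by most at the left, where the KNGAE, KNGAT and KNGUT elements are found, and by least at the right, where the KSSAT elements are found.

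The fold was not the same for weak and strong elements. Members were divided into 10 groups of about equal size by their pMYC value in 1 replicate, and the fold was read in the other replicate. Counting noise of the grouping libraries thus did not enter the fold. Any error of an element that both replicates share, as they read the same plasmid pool, was not removed. In replicate 2, the weakest group had medians of 0.973 RNA reads per DNA read beside pGAPDH and 0.158 beside pMYC, a median fold of 6.11. The strongest group had medians of 3.45 beside pGAPDH and 2.33 beside pMYC, a median fold of 1.38. In replicate 1, grouped by replicate 2, the median fold was 6.07 in the weakest group and 1.40 in the strongest.

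The difference between the minimal promoters, in RNA reads per DNA read, varied less over the same groups than the fold did. In replicate 2 its median was 0.821 in the weakest group, 1.37 in group 5 and 0.945 in the strongest. In replicate 1 it was 0.727 in the weakest group, 1.24 in group 6 and 0.900 in the strongest. From the lowest to the highest of the 10 medians, the fold thus ranged 4.42 times in replicate 2 and 4.33 times in replicate 1. The difference ranged 1.67 and 1.70 times. These are medians, and single strong elements differed widely: in replicate 2 the middle 50% of the strongest group spanned 0.497 to 1.37 RNA reads per DNA read.

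**Figure D2:**
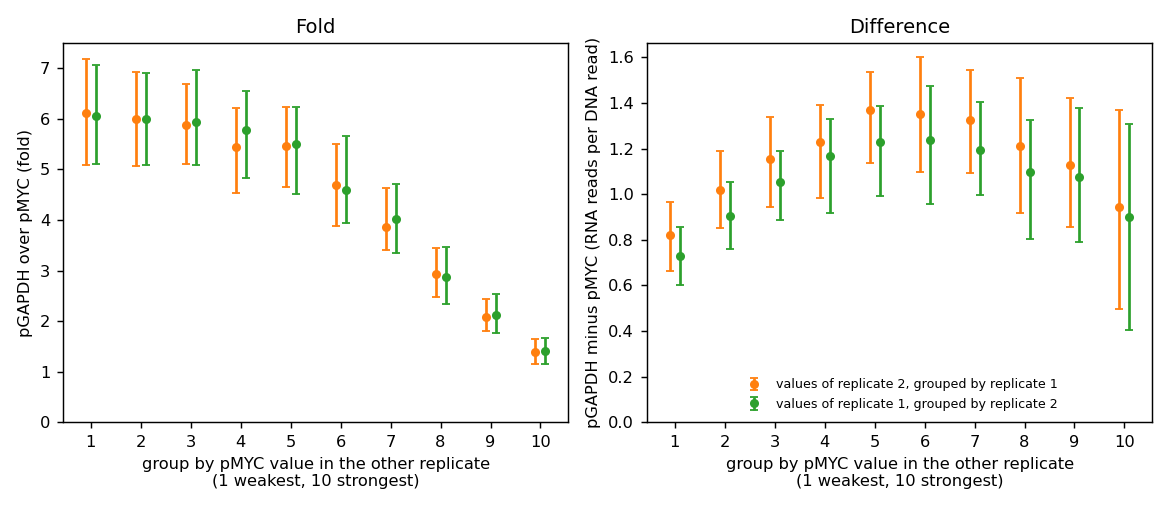
Median fold (left) and median difference in RNA reads per DNA read (right), pGAPDH against pMYC, over 10 groups of the 2484 elements ordered by their pMYC value in the other replicate, with bars for the middle 50% of elements. The fold falls from about 6.1 to 1.4 while the difference stays between 0.727 and 1.37.

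The same pattern was seen when elements were grouped by a pMYC measurement from other libraries. Of the members, 1132 were also measured in set 1, a plasmid pool with pMYC as its only minimal promoter. Across these elements the log2 RNA/DNA ratio of set 1 had a Pearson correlation of 0.969 with pMYC of the mixed pool and of 0.792 with pGAPDH. The elements share the libraries, and these correlations describe them without a test. In 5 groups ordered by set 1, the median fold of pGAPDH over pMYC in replicate 1 was 6.43, 6.19, 5.63, 3.68 and 1.71 from the weakest to the strongest. The median difference was 0.889, 1.13, 1.27, 1.14 and 0.976 RNA reads per DNA read.

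On the log scale, elements were spread less widely beside pGAPDH than beside pMYC. The standard deviation over the 2484 elements of log2 RNA/DNA was 0.629 and 0.620 under pGAPDH, against 1.23 and 1.22 under pMYC. The middle 50% of elements spanned 0.681 and 0.684 under pGAPDH and 1.45 and 1.42 under pMYC. The order of elements was similar but not the same: the correlation of the replicate means was 0.832 (Pearson) and 0.784 (Spearman), while replicates of each table correlated at 0.980. The per-element difference between the tables correlated at 0.942 between replicates, and 88.9% of members had the same sign in both.

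To ask which elements changed place relative to the others, each replicate was centred on its median member, and pGAPDH was compared with pMYC for each element. In limma, at an adjusted p under 0.05, 707 of 2484 elements were higher under pGAPDH (28.5%) and 1058 were lower (42.6%). With a difference of at least 1 on the log2 scale, 14 were higher (0.564%) and 507 were lower (20.4%). These counts say where an element stands relative to the median member, and the choice of zero point sets their balance. With the values as deposited, 186 were higher and 1414 lower, and with the 31 elements whose names are only a number as the zero point, 46 were higher and 1458 lower. The counts on the scale of the shared libraries, given above, run the other way.

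Most elements stayed on the same side of the median. Of the members, 874 were above it in both tables and 886 below it in both. Among the called elements, 200 were above it under pGAPDH and below it under pMYC, and 206 were below it under pGAPDH and above it under pMYC. These were 8.05% and 8.29% of all members. The first kind made up 20.4% of KNGAT (23 of 113), 18.8% of KNGUT (26 of 138) and 17.3% of KNGAE (26 of 150), classes in which the second kind had 0 elements. The medians of these classes stood at the 19.6th to 22.7th percentile under pMYC. Only elements above the pMYC median can be of the second kind, so few of theirs could be. The second kind made up 20.0% of TRE6_060S (20 of 100), 17.9% of TRE6_HPHP (5 of 28), 16.2% of TRE6_HRHR (6 of 37) and 13.1% of KUUUT (18 of 137). Other classes held both kinds, such as TRE5GCNC with 18 of the first and 29 of the second.

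Element classes, taken from the leading letters of the names, differed in this comparison. The labels do not explain the names, so the classes are given by name only. Of 110 KSSAT elements, 0 were higher and 106 lower under pGAPDH, with a median centred difference of -1.57, against 28.5% higher and 42.6% lower and a median of -0.07 over all members. Of 103 KSUAT elements, 5 were higher and 82 lower, with a median of -1.27. Of 47 TRE6_HRHP elements, 2 were higher and 38 lower, with a median of -1.46. Of 28 TRE6_HPHP elements, 0 were higher and 24 lower, with a median of -1.15, and of 37 TRE6_HRHR elements, 0 were higher and 27 lower, with a median of -0.85. The medians of all 5 classes were above that of all members in both tables, and the median KSSAT element stood at the 90.4th percentile under pGAPDH and at the 91.8th under pMYC.

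The KSSAT elements thus stood at about the same rank, at a smaller distance from the median element, beside pGAPDH. Their median was 2.62 RNA reads per DNA read beside pGAPDH and 1.62 beside pMYC, a median fold of 1.63, against 4.61 over all members. Their median difference of 0.995 RNA reads per DNA read was close to the 1.10 over all members. The same held for KSUAT, with medians of 2.14 beside pGAPDH and 1.08 beside pMYC, a median fold of 2.02 and a median difference of 0.916.

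Some weak classes lay on the other side. Of 150 KNGAE elements, 103 were higher and 0 lower, with a median centred difference of 0.38. Of 113 KNGAT elements, 80 were higher and 1 lower, and of 138 KNGUT elements, 103 were higher and 1 lower, with medians of 0.40 and 0.39. Of the 31 elements with only a number for a name, 17 were higher and 0 lower, with a median of 0.35. Of 205 TRE5NGCC elements, 74 were higher and 18 lower, with a median of 0.22. On the scale of the shared libraries the median KNGAT element had 1.35 RNA reads per DNA read beside pGAPDH and 0.205 beside pMYC, a median fold of 6.38. Not every weak class lay there: of 28 TRE5SPNN elements, 2 were higher and 13 lower, with a median of -0.37.

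The directions of the weak classes depended in part on the zero point and on the scale of the deposited values. Those of the strong classes were the same in the 3 settings of the deposited values given below, but not on the scale of the shared libraries. On that scale every class had a median fold above 1, from 1.63 (KSSAT) to 2.69 (TRE6_HRHR) in the strong classes. The median difference over all members was -0.37 with the values as deposited and -0.47 with the elements that have a number for a name as the zero point. With the values as deposited KNGAE had 34 higher and 6 lower, KNGAT 26 and 4, KNGUT 36 and 8, and TRE5NGCC 27 and 51. With the numbered elements as the zero point KNGAE had 6 higher and 9 lower, KNGAT 8 and 6, KNGUT 9 and 10, and TRE5NGCC 7 and 60. The KNG classes thus kept their direction with the values as deposited and were about even with the numbered zero point. With each table divided by its standard deviation KNGAE had 55 higher and 22 lower, KNGAT 49 and 17, KNGUT 70 and 19, and TRE5NGCC 39 and 71. TRE5NGCC thus turned to more lower than higher in all 3 settings. KSSAT had 0 higher and 110 lower with either zero point and 3 higher and 89 lower on the divided scale. KSUAT, TRE6_HRHP, TRE6_HPHP and TRE6_HRHR also had more lower than higher in all 3 settings.

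Ranks moved with class as well, and ranks do not depend on the zero point. The median KNGUT element stood 16.5 percentile points higher under pGAPDH than under pMYC, the median KNGAT element 15.2, the median of the 31 elements with a number for a name 14.5, and the median KNGAE element 10.8. The median TRE5NGCC element stood at the 22.1st percentile under pMYC, as low as the KNGUT median of 22.7, but only 3.28 points higher under pGAPDH. The median TRE5SPNN element stood at the 19.3rd percentile under pGAPDH and the 35.3rd under pMYC, and its median shift of -8.65 points was the lowest of the 20 classes with at least 20 members. TRE6_HPHP followed at -8.04 and TRE6_060S at -5.50.

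Among the remaining classes, TRE6_060S had 12 higher and 64 lower of 100, with a median centred difference of -0.56, and KUUAT had 48 higher and 48 lower of 139, with a median of 0.03. KUUUT had 20 higher and 80 lower of 137, and KUUAE 21 higher and 84 lower of 152. TRE5GCCC had 38 higher and 114 lower of 220, TRE5GCNC 71 and 114 of 244, and TRE5GCLR 49 and 91 of 199. KSUUT had 26 higher and 61 lower of 124, and TRE6_020S 25 and 60 of 114. Over all members 28.5% were higher and 42.6% lower. TRE5GCNC, at 29.1% and 46.7%, and TRE5GCLR, at 24.6% and 45.7%, were near these shares.

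**Figure D3:**
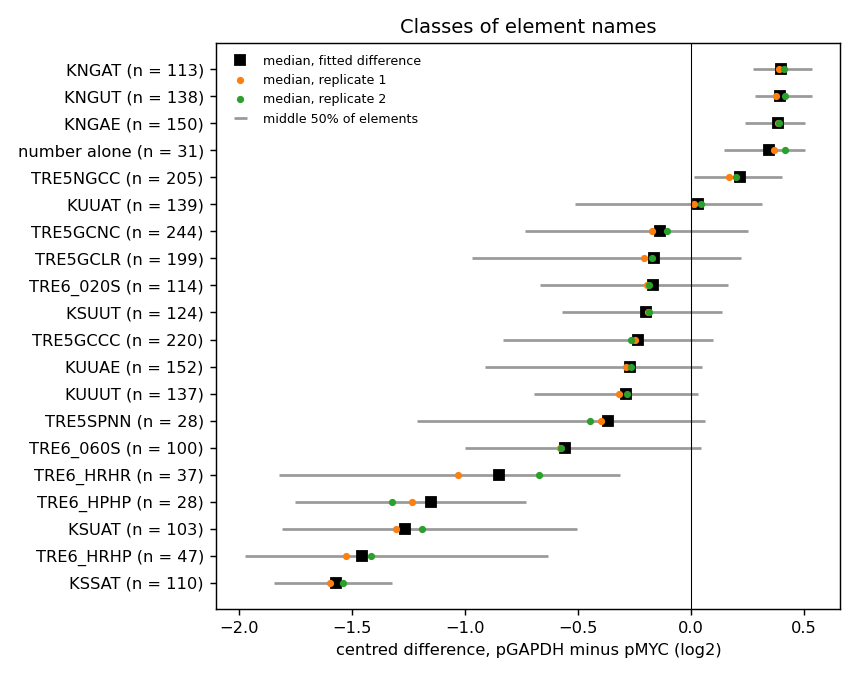
Centred difference in log2 RNA/DNA, pGAPDH minus pMYC, for the 20 element classes with at least 20 members. Black squares are class medians, coloured points the medians in each replicate, and grey lines the middle 50% of elements. KSSAT lies lowest at -1.57 and the KNG classes highest, at 0.38 to 0.40, which centring on the elements with a number for a name moves to -0.02 to 0.00.

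The 5 highest elements were the same under both minimal promoters, when each locus was counted once. TRE6_020S0033.rev had log2 RNA/DNA values of 5.61 and 5.69 under pGAPDH, against 7.24 and 7.21 under pMYC. TRE5GCLR0189.rev had 4.46 and 4.50 under pGAPDH and 7.38 and 7.13 under pMYC. The other members of this list were KSSAT0004.rev, TRE5GCLR0170.fwd and KSSAT0024.rev, which had means of 2.31 to 2.57 under pGAPDH and of 4.96 to 5.34 under pMYC. In both tables the first 2 elements stood apart from the next 3.

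In RNA reads per DNA read, these elements differed in how they compared. TRE6_020S0033.rev had 75 and 87.6 beside pGAPDH and 39.1 and 41.9 beside pMYC, so its 2 values beside pGAPDH were both above its values beside pMYC, at 2.00-fold. TRE5GCLR0189.rev had 33.8 and 38.3 beside pGAPDH, against 43.0 and 39.6 beside pMYC, a fold of 0.872. KSSAT0024.rev had 8.0 and 8.0 beside pGAPDH, against 8.43 and 8.36 beside pMYC. In the enhancer read-out TRE6_020S0033.rev had a mean log2 RNA/DNA of 0.00 under pGAPDH and 1.14 under pMYC.

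The only elements whose names begin with neither K, TRE nor a digit were RSV.fwd and RSV.rev. RSV.fwd had log2 RNA/DNA of 2.14 and 2.11 under pGAPDH and 4.84 and 4.82 under pMYC. RSV.rev had 0.96 and 0.90 under pGAPDH and 2.40 and 2.44 under pMYC. The gap between the orientations was smaller under pGAPDH than under pMYC in both replicates. RSV.fwd had 6.77 and 7.28 RNA reads per DNA read beside pGAPDH, against 7.39 and 7.97 beside pMYC, while RSV.rev had 2.99 and 3.16 beside pGAPDH and 1.36 and 1.54 beside pMYC. The stronger orientation was thus 1.09-fold lower and the weaker one 2.12-fold higher beside pGAPDH.

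The largest negative difference was that of KSSAT0014.fwd, with log2 RNA/DNA of 0.13 and -0.45 under pGAPDH and 4.39 and 4.48 under pMYC. Its centred difference was -4.30 ± 0.23 (SE; limma, adjusted p = 6.864e-09). Its pGAPDH value rests on 146 RNA and 103 DNA reads over both replicates, and its replicates lay further apart there than under pMYC. Its values elsewhere were high: a mean of 4.98 in set 1 and of 4.90 under pAPOBEC3F. In the enhancer read-out it stood at 0.13 ± 0.81 under pGAPDH and at 1.98 ± 0.23 under pMYC (SD, n = 2 each), and its centred difference there was -0.94 in replicate 1 and -2.37 in replicate 2. It was also the element with the clearest lower value on the scale of the shared libraries, with 1.68 and 1.24 RNA reads per DNA read beside pGAPDH and 5.44 and 6.31 beside pMYC, or 4.06-fold lower beside pGAPDH.

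Other elements were also far lower under pGAPDH after centring, and several of them had good depth. KSUAT0010.rev had 1.05 and 1.01 under pGAPDH and 3.86 and 3.94 under pMYC, a difference of -2.58 ± 0.05 (SE; limma, adjusted p = 3.075e-11), from 8616 and 13087 RNA reads. TRE5SPNN0073.fwd had 0.46 and 0.38 under pGAPDH and 3.46 and 3.37 under pMYC, a difference of -2.70 ± 0.07 (SE; limma, adjusted p = 6.569e-11). Both also had less RNA per DNA read beside pGAPDH: KSUAT0010.rev had 3.17 and 3.41 there, against 3.76 and 4.35 beside pMYC, and TRE5SPNN0073.fwd 2.10 and 2.20, against 2.84 and 2.92.

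KSSAT0006.fwd had 1.55 and 1.54 under pGAPDH and 4.44 and 4.33 under pMYC, a difference of -2.54 ± 0.07 (SE; limma, adjusted p = 7.765e-11). In RNA reads per DNA read it had 4.50 and 4.93 beside pGAPDH and 5.63 and 5.69 beside pMYC, or 1.20-fold lower beside pGAPDH. It stood at the 97.9th percentile under pGAPDH and the 99.6th under pMYC. Its enhancer read-out differed by a similar amount, at a mean of 1.76 under pGAPDH and of 4.78 under pMYC. The other 4 of the 8 lowest elements were TRE6_020S0044.fwd, KSUAT0035.rev, TRE5SPNL0026.rev and TRE5GCCC0081.rev, with differences between -2.73 and -2.54. On the scale of the shared libraries these 4 were only 1.20- to 1.37-fold lower beside pGAPDH. There TRE5GCCC0081.rev was not called (limma with a replicate block, adjusted p = 0.243). It stood at the 42.8th percentile under pGAPDH and the 92.4th under pMYC. TRE6_020S0044.fwd stood at the 98.3rd and the 99.7th, with 108 DNA reads under pGAPDH. All 8 of the lowest elements were also lower under pGAPDH in both replicates of the enhancer read-out, by 0.72 to 2.82 on the log2 scale after centring. The centred differences of the 2 read-outs had a Pearson correlation of 0.745 over 2479 elements. The share lower among all elements was not counted, so this count does not set these 8 apart. The other orientation was measured for 3 of the 8. TRE6_020S0044.rev had a difference of -1.82 ± 0.15 and KSSAT0006.rev of -1.35 ± 0.11 (SE; limma, adjusted p = 5.417e-07 and 3.659e-07). TRE5GCCC0081.fwd had a difference of -0.06 ± 0.17 (SE; limma, adjusted p = 0.746).

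Elements with large positive differences were fewer, and their pMYC values were low. KNGAT0110.rev had log2 RNA/DNA of -0.08 and -0.10 under pGAPDH and -1.84 and -1.87 under pMYC, a difference of 2.06 ± 0.06 (SE; limma, adjusted p = 7.765e-11). KUUAE0093.fwd had -0.40 and -0.41 under pGAPDH and -2.25 and -2.05 under pMYC, a difference of 2.04 ± 0.12 (SE; limma, adjusted p = 2.299e-08), with 42 RNA reads in all under pMYC. Both were among the very lowest elements of the pMYC table, at the 0.403rd and 0.201st percentile, and near or below the middle of the pGAPDH table, at the 47.5th and 25.9th.

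The values of both were less negative with pMYC in set 1. There KNGAT0110.rev had a mean of -0.29 ± 0.16 and KUUAE0093.fwd of -0.15 ± 0.06 (SD, n = 2 each). The 8 highest elements had 36 to 802 RNA reads under pMYC, and 4 of them were measured in set 1. The other 2 of those 4 were KNGAT0064.rev and an element with a number for a name. Their means were -0.94 and -0.51 in set 1 and -2.06 and -1.50 in the pMYC columns of the mixed pool. The pMYC value of the numbered element rests on 47 RNA reads, with -0.93 and -2.07 in the replicates, so its centred difference was 0.54 in replicate 1 and 1.92 in replicate 2. The 8 elements were chosen by their values in the mixed pool. Set 1 was normalized apart and no ranks in it are given, so levels in the 2 pools cannot be set directly against each other. In the enhancer read-out 5 of the 8 highest elements were higher under pGAPDH in both replicates and 1 was lower in both. The shares among all elements were not counted, so these counts do not set the 8 apart. KNGAT0110.rev differed in that read-out by 0.00 and KUUAE0093.fwd by 0.43, with 0.69 and 0.17 in the replicates. The other orientation of the first locus, KNGAT0110.fwd, differed by 0.45 ± 0.17 in the promoter read-out (SE; limma, adjusted p = 0.0323).

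**Figure D4:**
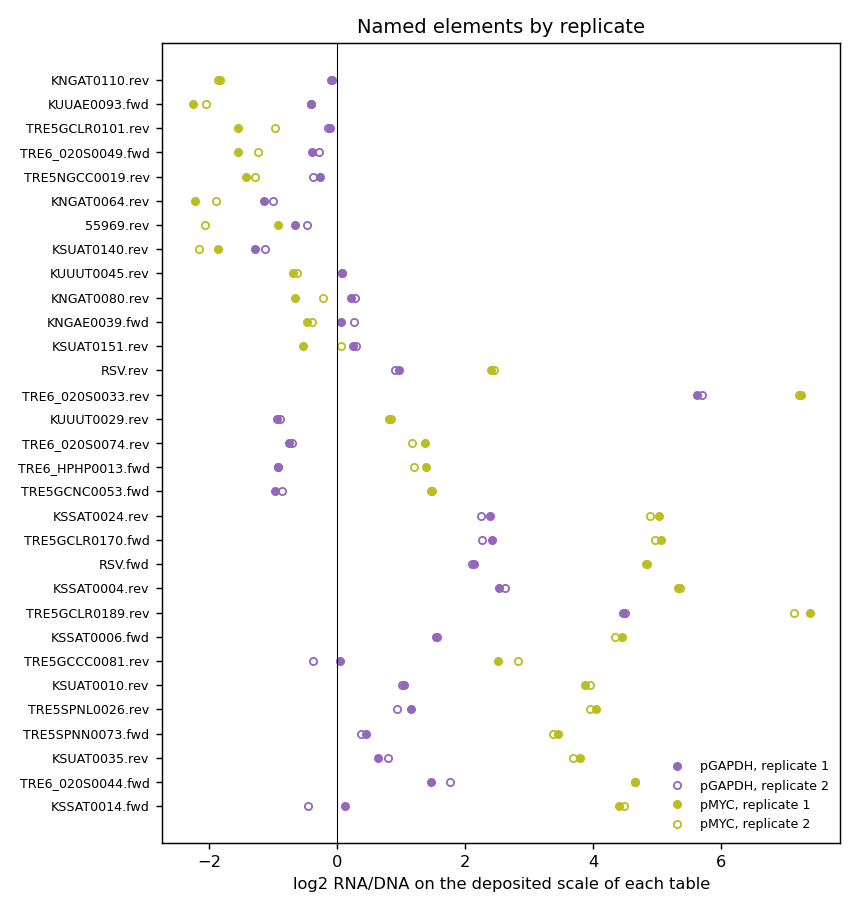
Log2 RNA/DNA of the elements with the highest and lowest centred differences, the highest values, the largest shifts in rank and the 2 RSV elements, on each table's own deposited scale, in order of their difference. Filled and open circles are replicates 1 and 2, and KSSAT0014.fwd, at the bottom, has the widest gap, with pGAPDH at 0.13 and -0.45 and pMYC at 4.39 and 4.48.

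Some elements changed rank by far more than their class. TRE5GCNC0053.fwd had log2 RNA/DNA of -0.97 and -0.87 under pGAPDH and 1.49 and 1.47 under pMYC, which put it at the 6.16th percentile under pGAPDH and the 79.7th under pMYC. Its centred difference was -2.10 ± 0.15 (SE; limma, adjusted p = 1.207e-07). The other orientation, TRE5GCNC0053.rev, had -0.99 and -1.02 under pGAPDH and 1.25 and 1.17 under pMYC, a difference of -1.92 ± 0.08. Both orientations were thus among the weak elements beside pGAPDH and among the stronger ones beside pMYC.

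TRE6_HPHP0013.fwd stood at the 6.00th percentile under pGAPDH and the 77.1st under pMYC, TRE6_020S0074.rev at the 11.1th and the 76.5th, and KUUUT0029.rev at the 6.32nd and the 69.1st. KUUUT0029.rev was also high with pMYC in set 1, at 1.43 ± 0.12 (SD, n = 2), and had a mean of 1.29 under pAPOBEC3F. On the scale of the shared libraries none of these 4 was lower beside pGAPDH: TRE5GCNC0053.fwd had 0.786 and 0.927 RNA reads per DNA read there and 0.725 and 0.784 beside pMYC.

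The largest rises in rank were those of KNGAT0080.rev, KUUUT0045.rev, KNGAE0039.fwd and KSUAT0151.rev. KUUUT0045.rev had the same value of 0.08 in both replicates under pGAPDH and had -0.69 and -0.63 under pMYC, from 12548 and 1471 RNA reads, a difference of 1.03 ± 0.05 (SE; limma, adjusted p = 4.789e-09). It stood at the 60.8th percentile under pGAPDH and the 9.86th under pMYC. KUUUT0045.fwd, the other orientation, had a difference of 0.08 ± 0.08 (SE; limma, adjusted p = 0.378). In set 1, which was normalized apart, KUUUT0045.rev had a mean of 0.14. KSUAT0151.rev had 120 RNA reads under pMYC, and its pMYC values of -0.54 and 0.05 were far apart.

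The orientations of a locus mostly moved together. Of the 1067 loci with both, 223 had both elements called higher, 378 had both called lower and 20 had them called in opposite directions. In 289 loci 1 of the 2 was called and in 157 neither was. The differences of the fwd and the rev element had a Pearson correlation of 0.802 over these loci, with a median absolute gap of 0.233 on the log2 scale. The orientations share most of their sequence and all libraries.

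The loci with the largest shared differences each way came from several classes. Both orientations of TRE6_HRHP0040 were lower after centring, by -2.29 ± 0.10 and -2.15 ± 0.11 (SE, fwd and rev). So were those of KSUAT0042, by -2.22 ± 0.13 and -2.13 ± 0.14. KSSAT0021 and TRE5GCLR0110 were the other 2 such loci. These 8 elements stood between the 90.7th and the 99.6th percentile under pGAPDH and between the 96.4th and the 99.7th under pMYC. On the scale of the shared libraries their folds, pGAPDH over pMYC, lay between 0.927 and 1.15, and none was called lower. KNGUT0068 was higher in both orientations, by 0.86 ± 0.11 and 0.78 ± 0.11, as were KNGUT0023, TRE5GCLR0101 and KNGAT0043. With each table divided by its standard deviation KNGAT0043.rev was not called (0.017, limma adjusted p = 0.923).

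**Figure D5:**
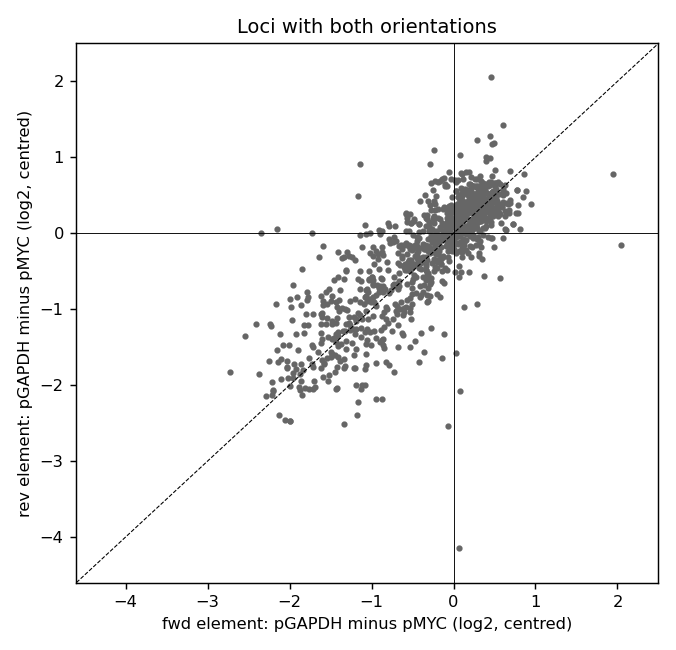
Centred difference in log2 RNA/DNA, pGAPDH minus pMYC, of the rev element against that of the fwd element for the 1067 loci with both. Most points lie near the dashed line of equal differences, with a Pearson correlation of 0.802.

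The enhancer read-out gave a parallel comparison from other libraries of the same cells. In 2479 elements measured in it, the centred difference between pGAPDH and pMYC had a Pearson correlation of 0.745 and a Spearman correlation of 0.711 with that of the promoter read-out. Values were again less spread beside pGAPDH, with a standard deviation of 0.314 against 0.703 beside pMYC. The median fold on the scale of the shared libraries was 5.68 and 5.74, against 4.57 and 4.54 in the promoter read-out. The enhancer difference correlated at 0.671 between replicates, where depth was lower.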

How the data were processed

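Promoter barcodes were read in 2 RNA and 2 DNA libraries from K-562 cells. The tools named in the submitters' processing notes are fastp, edgeR and limma, and the build is hg38. The order of steps and the scaling are not given in the sources used here. The deposited signal values of each table are whole multiples of 1 step per column in 100% of cases (tolerance 0.02), taken as reads. Going by the file headers, the authors fitted limma to RNA against DNA and deposited its log2 fold changes, p-values and score columns. Only the log2 fold changes were used, as a check: own mean log2 ratios differed from them by at most 0.0175 under pGAPDH and 0.0535 under pMYC. The authors listed 7 and 8 members without a test, which were kept here.

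For each replicate log2(RNA/DNA) was computed with 0.5 reads added and centred on the median member. The 4 ratios per element were compared with limma 3.58.1 in R 4.3.3, with the spread trended over the mean signal and Benjamini-Hochberg adjustment over 2484 elements. For the scale of the shared libraries, RNA reads were divided by DNA reads without centring. Since the labels assign both tables to the same libraries, depth cancels between them. Python 3.11.15, numpy 2.4.6, pandas 2.3.3 and matplotlib 3.10.9 were used.

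Columns of the same number are the same library, which pairs them. Their deviations from the group means correlated at 0.0368 over 2484 elements, and the fit with a replicate block shared 1754 of the 1765 calls.

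Elements with at least 100 DNA and 20 RNA reads in both tables (2463 of 2484) could be named. Named were the 8 highest and 8 lowest called differences, the 5 highest values per table, the 4 largest rank shifts each way, names beginning with neither K, TRE nor a digit, and the 4 loci each way whose orientations shared the largest difference, 1 element per locus in the first 3. The other orientations of named elements, and 2 further elements with values in the closing section, were chosen after their values were seen. Members and lists were chosen with earlier results of these data known. On simulated data with independent normal noise and 200 of 2484 elements changed, the fit recovered 84% of log2 changes of 0.5. It recovered 100% of changes of 1 or 2, with 4.95% false calls. In the data 1765 elements were called, so the simulation does not give the error rate of those calls. Alternatives were other zero points, scale, pseudocounts, read filters, thresholds and models, a replicate block, single replicates, and 1 element per locus.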

Additional observations from a re-analysis of the deposited data

Results flagged for a closer look

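Some elements lay on opposite sides of the median member in the 2 tables in both replicates, with a called difference of at least 1 on the log2 scale. Over all 2484 members, 14 were called higher past that minimum (0.564%) and 507 lower (20.4%). With no minimum and no read filter, 200 called elements were above the median under pGAPDH and below it under pMYC, and 206 the reverse. With both, 1 was above the median under pGAPDH and below it under pMYC, and 72 were below it under pGAPDH and above it under pMYC. The uneven pair of counts thus follows the imbalance of large differences over all members. The 1 element of the first kind was KUUUT0045.rev, with a difference of 1.03 ± 0.05 (SE). Of the 72, those with the largest differences were KSUUT0051.fwd, TRE5GCNC0053.fwd, TRE6_HRHR0006.fwd and TRE6_HPHP0013.fwd.

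KSUUT0051.fwd had log2 RNA/DNA of -0.31 and -0.45 under pGAPDH and 2.07 and 2.08 under pMYC, a difference of -2.16 ± 0.14 (SE), from 1235 and 635 RNA reads. TRE6_HRHR0006.fwd had -0.12 and -0.18 under pGAPDH and 2.04 and 2.27 under pMYC, a difference of -2.01 ± 0.12 (SE). TRE6_HPHP0013.fwd had -0.92 and -0.93 under pGAPDH and 1.39 and 1.20 under pMYC, a difference of -1.93 ± 0.15 (SE). TRE5GCNC0053.fwd, described with the ranks, had a difference of -2.10 ± 0.15 (SE). The limma test of each difference had an adjusted p between 4.789e-09 and 2.325e-07.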

How the results depend on the processing

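The counts of elements higher and lower under pGAPDH depended on the zero point and on a minimum difference. Against 707 higher and 1058 lower, the values as deposited gave 186 higher, centring on the 31 elements with a number for a name 46 higher, and the scale of the shared libraries 2401 higher and 7 lower. That scale with a replicate block, an alternative added after the data were seen, gave 2422 higher and 12 lower. An absolute difference of at least 1 left 14 higher and 507 lower. With 1 element per locus 447 were higher and 627 lower, of 1417 tested instead of 2484, so these counts are lower because fewer elements were tested. The replicate block without other changes gave 736 higher and 1069 lower and moved no count by over 1.5 times. Leaving out each replicate gave 506 to 829 higher and 944 to 1118 lower. The other models, pseudocounts, read filters and the stricter p kept both counts within 1.5 times. The count test planned for reads was not run: the deposited values are scaled, and the search for whole reads from the lowest value of each column did not accept them, although all were whole multiples of the step used here.

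On the scale of the shared libraries 12 named elements reversed to a positive log2 difference: TRE6_020S0033.rev (1.00), RSV.rev (1.08), KUUUT0029.rev (0.84), TRE6_020S0074.rev (0.58), TRE6_HPHP0013.fwd (0.35), TRE5GCLR0110.rev (0.20), TRE5GCNC0053.fwd (0.18), KSSAT0021.fwd (0.15), KSUAT0042.rev (0.15), TRE6_HRHP0040.rev (0.13), TRE5GCLR0110.fwd (0.071) and KSUAT0042.fwd (0.061). With each table divided by its standard deviation, TRE6_020S0033.rev (3.45), TRE5GCLR0189.rev (1.55) and KSSAT0004.rev (0.053) reversed upward and KSUAT0140.rev (-0.012) downward. On this scale KNGAT0064.rev, the numbered element among the highest, KSUAT0140.rev, KSSAT0004.rev, TRE5GCLR0170.fwd, KSSAT0024.rev and KNGAT0043.rev were not called. The cause was not tested.

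The ratio of the spreads, 0.509, was 0.470 from the interquartile range. Depth limits the weak elements under pMYC most. The scale of the shared libraries rests on the step of each column being 1 read.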
